A study of Bubalus bubalis with 6 samples.

Results

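The retinoblastoma (RB) pocket proteins and the E2F transcription factors were followed through myogenic differentiation of buffalo muscle stem cells (MuSCs). The 10 genes were taken by symbol from the deposited gene table, which lists 24616 genes: the pocket proteins RB1, RBL1 and RBL2, the factors E2F1, E2F2, E2F3, E2F5, E2F7 and E2F8, and the E2F dimer partner TFDP1. All 10 had enough counts to be tested. E2F4, E2F6 and TFDP2, relatives that complete the family in this table, are given beside them. TFDP3 was not found by symbol.

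Polyadenylated RNA was sequenced from primary MuSCs of fetal water buffalo longissimus muscle, without any genetic change. The 3 GM samples were proliferating cells in growth medium with fetal bovine serum. The 3 DM samples were cells moved, near confluence, into a low-serum differentiation medium with horse serum. The labels do not say whether the replicates were separate cultures or animals, so p-values measure only the spread between these samples.

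Pocket proteins bind E2F factors and hold back the genes of the G1/S transition. Cyclin D and cyclin E kinases phosphorylate them and free the E2F factors, whereas p21, p27 and p57 inhibit those kinases. RB1 mainly binds the activators E2F1 to E2F3, while RBL1 (p107) and RBL2 (p130) mainly bind the repressors E2F4 and E2F5. E2F7 and E2F8 are atypical factors that repress G1/S genes without a DP partner or a pocket protein. In muscle, permanent exit from the cell cycle accompanies fusion into myotubes, and RBL2 is known as the pocket protein of quiescent and differentiated cells.

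Between 5724 and 11004 reads per sample were counted on the 10 genes, out of 35615864 to 40305237 on all genes. Levels are given as CPM, counts scaled to the TMM-normalized library, as mean ± SD of n = 3 samples where averaged. A negative log2 fold change means less mRNA in DM. They were tested with edgeR's quasi-likelihood test over 15576 genes with Benjamini-Hochberg adjustment, and a gene was called when the adjusted p was under 0.05 and the log2 fold change lay beyond 1 in either direction. The replicate DM3 stood apart from the other DM samples. The chi-square per degree of freedom of its gene counts was 40.5 to 41.4 against DM1 and DM2, and 6.22 to 11.7 in the other pairs of replicates. The same 5 members were called without DM3.

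In DM, E2F1, E2F2, E2F7 and E2F8 fell, RBL2 rose, and RB1 and E2F5 did not pass the test. Of the 10 members 5 were called, 4 of them lower in DM and 1 higher, where 25.2% of all tested genes were called, 10.3% lower and 14.9% higher. RBL1, TFDP1 and E2F3 were also lower in every DM sample, with adjusted p-values under 0.05 but with changes short of the fold threshold. Without a minimum fold, 8 members passed, 7 of them lower, against 62.9% of tested genes, 31.5% lower and 31.4% higher. The median log2 fold change of the members was -0.90, beside 0.02 over all tested genes. For 8 of the 10 members, 7 of them lower, the sample ranges of GM and DM were apart. This was also true of 68.8% of tested genes, 34.4% in each direction.

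**Figure D1:**
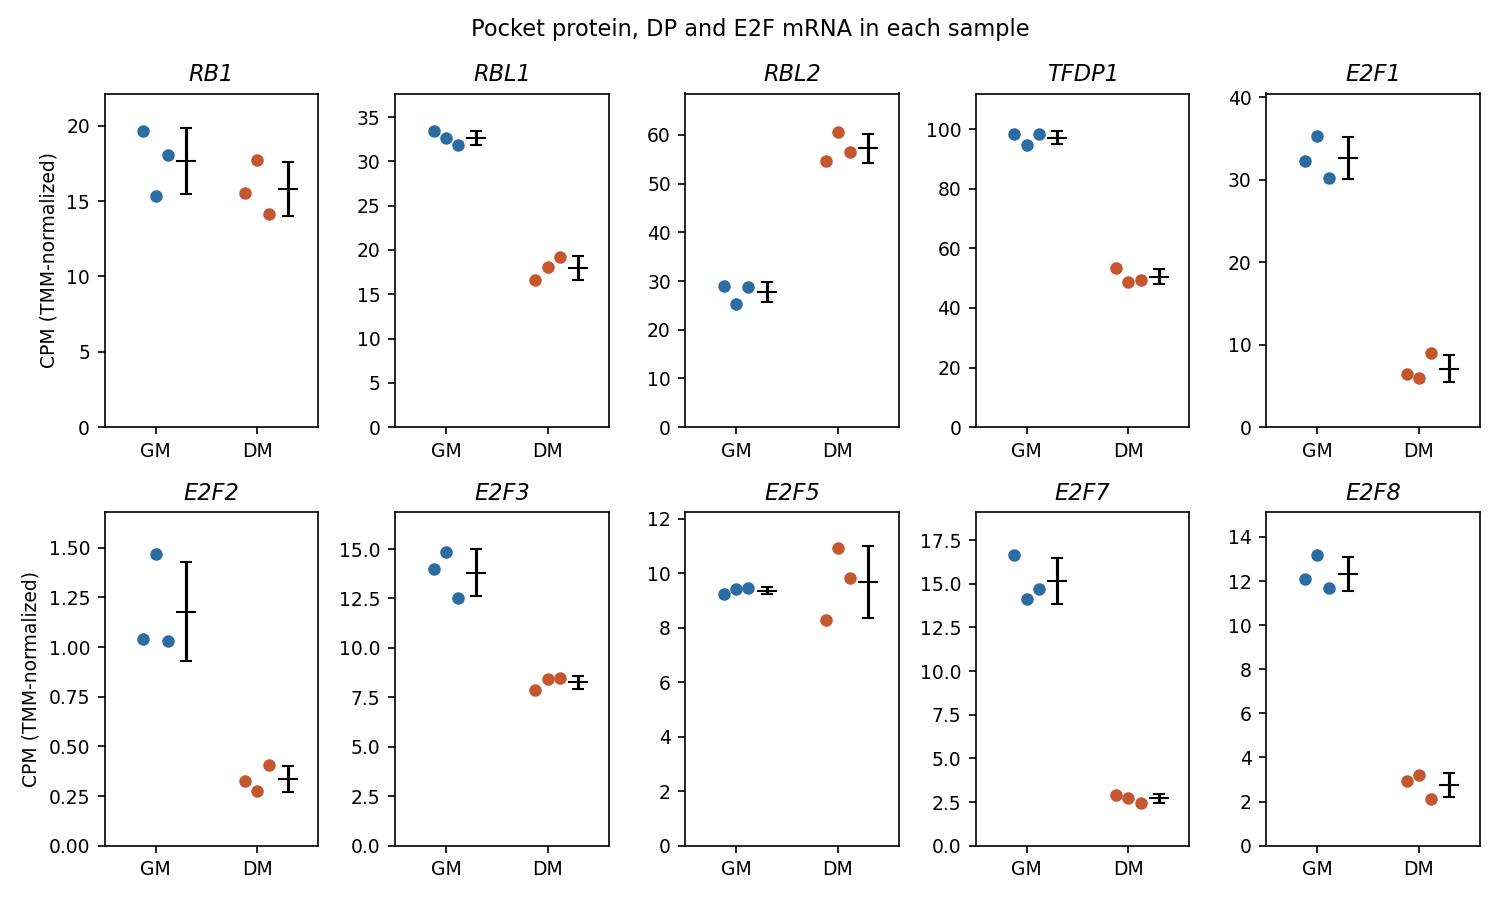
TMM-normalized CPM of the 10 members in each of the 3 GM (blue) and 3 DM (orange) samples, with the mean and SD in black and every axis starting at 0. RBL2 is the only panel in which all DM points lie above all GM points, and the points of RB1 and E2F5 overlap between GM and DM.

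RBL2 was the pocket protein whose mRNA rose. It lies at chromosome 18, 21879671 to 21925829, on the plus strand, in the coordinates of the deposited cattle annotation, whose build is not named. RBL2 measured 29.0, 25.3 and 28.8 CPM in GM1 to GM3 and 54.6, 60.5 and 56.5 CPM in DM1 to DM3. The lowest DM value was therefore well above the highest GM value. The log2 fold change was 1.05 (SE 0.079, edgeR adjusted p = 9.85e-07), a 2.07-fold rise with a 95% interval of 0.87 to 1.22 on the log2 scale. This lies close to the fold threshold, and the call was lost without GM2 (0.99), with scaling by library size alone (0.95) and when genes were tested against a fold change of 2, where 4 members were called, all lower.

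RBL1, the pocket protein known to be made by dividing cells, moved the other way. Its levels were 33.4, 32.7 and 31.9 CPM in GM and 16.6, 18.1 and 19.3 CPM in DM, with no overlap. The 1.81-fold fall, -0.86 on the log2 scale (SE 0.080, adjusted p = 4.47e-06), stayed short of a call. The RBL1 interval, chromosome 13, 66567169 to 66730589 on the minus strand, overlaps 3 listed genes of the same strand, DSN1, NDRG3 and SOGA1. Each of the 3 had more counts than RBL1 in all 6 samples and fewer counts in every DM than in any GM sample. How shared reads were assigned is not given in the sources used here, so the value of RBL1 is uncertain to that extent.

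RB1, the founding tumour suppressor of the family, did not pass the test. It measured 19.6, 15.3 and 18.0 CPM in GM and 15.5, 17.7 and 14.2 CPM in DM, and the groups overlapped. The log2 difference was -0.16 (95% interval -0.43 to 0.10, adjusted p = 0.262), which leaves out a change of 2-fold in either direction but not a modest fall. RB1 lies at chromosome 12, 18196465 to 18316589, and overlaps LPAR6 on the other strand. LPAR6 had 39 to 48 counts in GM and 78 to 81 in DM, beside 525 to 813 for RB1.

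These opposite movements changed the make-up of pocket protein mRNA. Per kilobase of the deposited gene length, RBL1 was the largest part in GM, with 49.0 ± 2.31% of the summed level. RBL2 was the largest in DM, with 60.6 ± 0.359% after 32.4 ± 1.12% in GM. RB1 made up 18.5 ± 1.38% in GM and 15.0 ± 1.28% in DM. The summed level itself went from 17.5 ± 0.871 to 19.4 ± 1.003 CPM per kb, a small step beside the exchange between RBL1 and RBL2. These shares, and the ratios to RBL1 below, carry the uncertainty of the RBL1 value given above.

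The ratio of RBL2 to RBL1 within a sample, which no scaling of the library can move, was 0.679, 0.605 and 0.705 in GM and 2.57, 2.61 and 2.29 in DM. RBL2 was thus below RBL1 in all GM samples and above it in all DM samples, with a difference of 1.91 between the groups on the log2 scale (SE 0.089). An exact two-sided permutation test gave p = 0.1, the smallest that 3 samples against 3 allow, and 0.129 after adjustment over the 9 ratios compared. Of the other pocket protein ratios, RB1 to RBL1 went from 0.379 ± 0.0442 to 0.619 ± 0.0907, and RB1 to RBL2 from 0.571 ± 0.0324 to 0.247 ± 0.0198. Both were without overlap, and both had the same permutation p of 0.1.

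**Figure D2:**
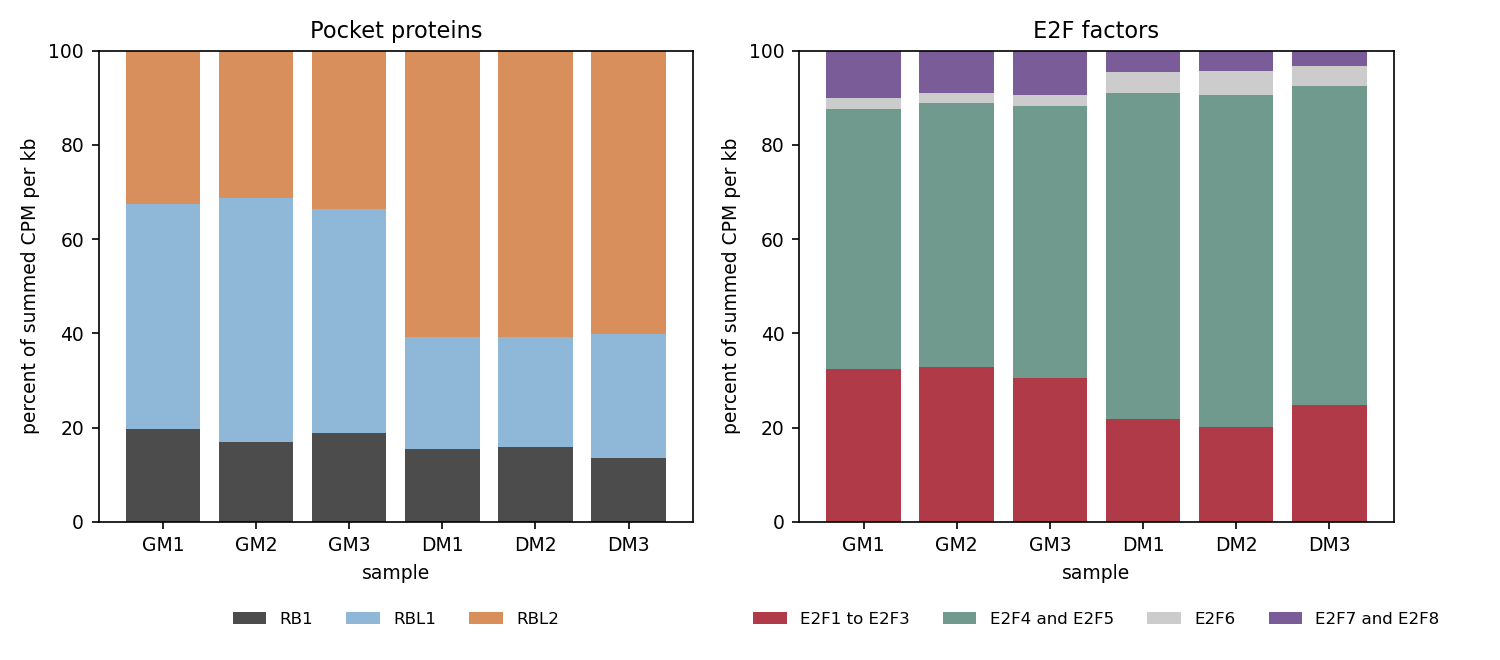
Share of each pocket protein (left) and of each class of E2F factor (right) in the summed CPM per kb of its family, as stacked bars for the 6 samples. RBL2 holds 31.3 to 33.5% of pocket protein mRNA in GM and 60.2 to 60.8% in DM, and the share of E2F1 to E2F3 is smaller in each DM than in each GM sample.

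Among the activators, E2F1 fell most. E2F1, which drives entry into S phase and can also induce apoptosis, lies at chromosome 13, 63705710 to 63714008, on the minus strand. It measured 32.3, 35.3 and 30.2 CPM in GM and 6.47, 5.93 and 8.94 CPM in DM. All DM values were far below the lowest GM value, and DM3 was the highest of the DM samples. The fall was 4.58-fold, -2.20 on the log2 scale (SE 0.14, adjusted p = 3.41e-07), and -2.39 without DM3.

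E2F2, the member with the lowest level per kilobase in GM and in DM, had 43, 61 and 39 counts in GM1 to GM3 and 11, 10 and 15 counts in DM1 to DM3. Its CPM of 1.03 to 1.47 in GM and 0.273 to 0.405 in DM did not overlap. The log2 fold change of -1.81 had the widest error of the members (SE 0.35, adjusted p = 0.00107), with a 95% interval from -2.59 to -1.03.

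E2F3 fell less than the other activators, from 14.0, 14.9 and 12.5 CPM in GM to 7.88, 8.41 and 8.45 CPM in DM. It was lower in each DM sample, but its log2 fold change of -0.74 (SE 0.11, adjusted p = 0.000168) did not reach the fold threshold. The E2F3 to E2F1 ratio per kb was 0.379, 0.368 and 0.362 in GM and 1.07, 1.24 and 0.826 in DM. E2F3 mRNA was thus far below E2F1 mRNA in GM and close to it in DM. The ratio rose by 1.48 on the log2 scale (SE 0.17, exact permutation p = 0.1, adjusted 0.129). E2F2 relative to E2F1 went from 0.0432 ± 0.00600 to 0.0568 ± 0.00318, a smaller step, also without overlap.

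E2F5, a repressor that works with RBL2 and RBL1, showed no detectable change. It measured 9.23, 9.43 and 9.46 CPM in GM and 8.30, 10.9 and 9.83 CPM in DM. The DM samples spread around the narrow range of the GM samples, and the log2 difference was 0.05 (95% interval -0.23 to 0.33, adjusted p = 0.759). Its sign turned with scaling by library size alone (-0.044) and without DM2 (-0.029). Against E2F1 the contrast was wide: the E2F1 to E2F5 ratio per kb was 2.97 ± 0.233 in GM and 0.634 ± 0.159 in DM, so E2F1 was above E2F5 in all GM samples and below it in all DM samples.

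E2F4, the other pocket-dependent repressor and not itself a member, did fall. Its 104, 115 and 106 CPM in GM became 52.6, 53.6 and 53.3 CPM in DM, a log2 fold change of -1.03 (SE 0.064, adjusted p = 2.54e-07). The call sat at the threshold and was lost without GM2 (-0.98). E2F6, a repressor that does not bind pocket proteins, did not pass the test (-0.15, SE 0.13, adjusted p = 0.333).

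The atypical repressors E2F7 and E2F8 fell strongly. E2F7, at chromosome 5, 6429588 to 6466491, measured 16.7, 14.1 and 14.7 CPM in GM and 2.92, 2.73 and 2.46 CPM in DM. This 5.60-fold fall (log2 -2.49, SE 0.13, adjusted p = 8.98e-08) was the largest of the 10 members. E2F8, at chromosome 29, 25949976 to 25966355, measured 12.1, 13.2 and 11.7 CPM in GM and 2.95, 3.20 and 2.13 CPM in DM, a 4.47-fold fall (log2 -2.16, SE 0.17, adjusted p = 1.08e-06). Of the tested genes, 2.09% had a lower log2 fold change than E2F7 and 2.97% a lower one than E2F8.

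The fall of the atypical factors was set beside that of E2F1 by their ratios, a comparison that 3 samples against 3 leave imprecise. The ratio of E2F7 to E2F1 per kb was 0.249, 0.193 and 0.234 in GM and 0.218, 0.222 and 0.133 in DM, with overlap, a log2 difference of -0.27 (SE 0.27) and an exact permutation p of 0.5. E2F8 to E2F1 was 0.192 ± 0.00368 in GM and 0.209 ± 0.0788 in DM, again with overlap (log2 difference 0.039, SE 0.36, permutation p = 1.0). DM3, in which E2F1 was high and E2F7 and E2F8 were low among the DM samples, had the lowest value of both ratios.

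TFDP1, the DP subunit with which E2F1 to E2F6 bind DNA, was the most abundant member. It lies at chromosome 12, 90738265 to 90754997, on the plus strand. It measured 98.4, 94.7 and 98.3 CPM in GM and 53.4, 48.7 and 49.3 CPM in DM, tightly grouped and far apart. The log2 fold change of -0.94 (SE 0.065, adjusted p = 4.81e-07) fell just short of a call and passed it with scaling by library size alone (-1.04). TFDP2, the second DP gene, measured 11.5 to 13.5 CPM in GM and 11.5 to 12.1 CPM in DM and did not pass the test (log2 -0.08, SE 0.10, adjusted p = 0.510).

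**Figure D3:**
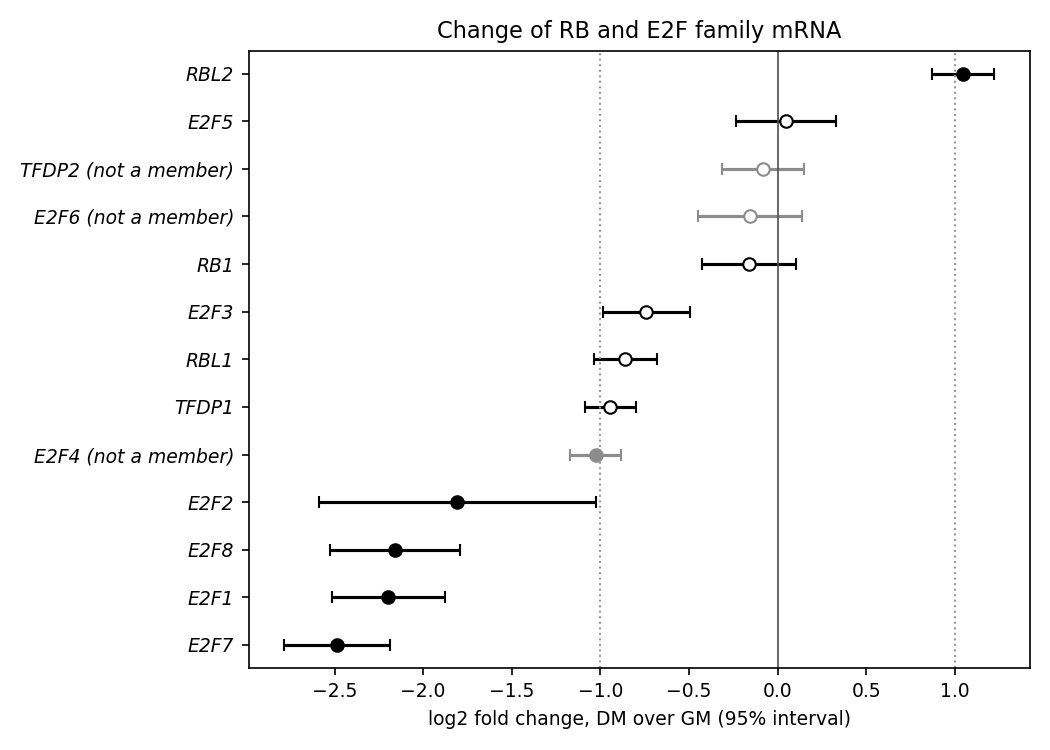
Log2 fold change (DM over GM) with 95% intervals for the 10 members (black) and 3 relatives (grey), filled where called, with dotted lines at the fold threshold. E2F7, E2F1, E2F8 and E2F2 lie furthest to the left, RBL1, TFDP1 and E2F3 between the threshold and 0, and RBL2 alone on the right of the upper line.

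Each member had a single mRNA in the deposited transcript table, with the same counts as its gene, so isoforms could not be separated. The calls there were also 5, with 4 lower and 1 higher, where 25.6% of 16352 mRNAs were called, 10.2% lower and 15.4% higher. With the same counts this is no second result. Without DM2, 4 member transcripts were called and 0 of them higher, so the RBL2 transcript lost its call there.

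Members were ranked by level only per kilobase. These levels depend on the gene models, some of which lack untranslated regions, since 50.5% of protein-coding lengths are multiples of 3. In the family this holds for E2F1, E2F2, E2F4, E2F6, E2F7 and E2F8 and not for the others. The order of genes, the shares, the class sums and the size of ratios per kb carry this limit. The log2 change of a ratio from GM to DM does not depend on length. In GM the order was E2F4 (53.2 CPM per kb), TFDP1 (42.8) and E2F1 (24.7), each apart from the next in all samples. TFDP2, E2F3, RBL1 and E2F5 followed at 8.32 to 9.22, and neighbours among them overlapped. Then came RBL2 and E2F7 at 5.69 and 5.54, which overlapped, E2F8 at 4.74, RB1 at 3.26, E2F6 at 2.51 and E2F2 at 1.07.

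In DM, E2F4 (26.1 CPM per kb) and TFDP1 (22.3) still led, and RBL2 came next at 11.8, apart from its neighbours. E2F1, at 5.39 ± 1.22 CPM per kb, had a sample range that overlapped those of its neighbours E2F3 (5.46) and RBL1 (4.73). E2F5 and TFDP2 overlapped above them at 8.60 and 8.70. E2F8 and E2F7, at 1.06 and 0.988, now stood below RB1 (2.91) and E2F6 (2.25), and E2F2 was again last at 0.305.

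**Figure D4:**
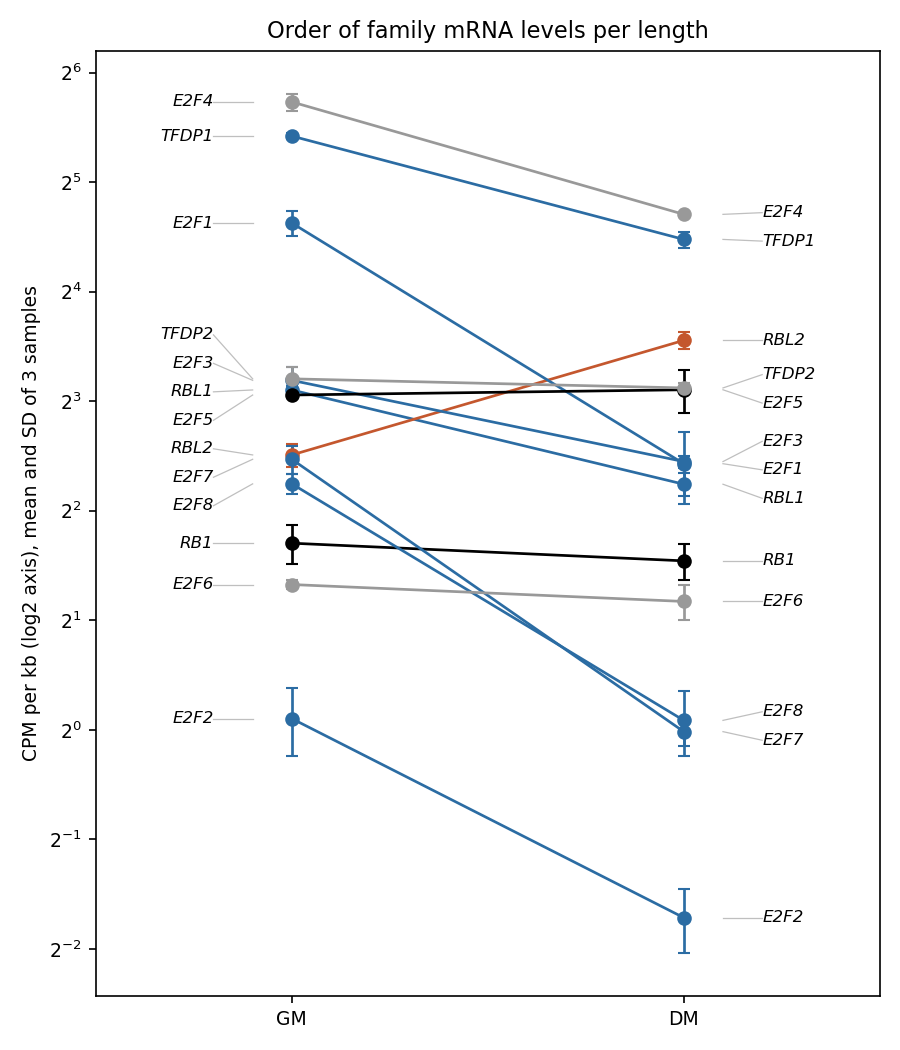
Mean CPM per kb on a log2 axis, with SD over 3 samples, of the 10 members and of E2F4, E2F6 and TFDP2 (grey) in GM and DM. Blue lines mark members lower in every DM sample, orange the member higher in every DM sample (RBL2) and black the members whose samples overlap (RB1 and E2F5). E2F1 drops from its place behind TFDP1 to the level of E2F3 and RBL1.

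Taken as classes over the 8 E2F genes, the activators E2F1 to E2F3 summed to 34.9 ± 2.89 CPM per kb in GM and 11.2 ± 1.37 in DM. The repressors E2F4 and E2F5 summed to 61.5 ± 2.91 and 34.7 ± 1.41, and the atypical E2F7 and E2F8 to 10.3 ± 0.440 and 2.05 ± 0.287. All 3 classes were lower in each DM sample. As a share of E2F mRNA the activators went from 31.9 ± 1.22% to 22.2 ± 2.33%, the atypical factors from 9.43 ± 0.587% to 4.10 ± 0.667%, and E2F4 with E2F5 from 56.3 ± 1.19% to 69.2 ± 1.31%. E2F5 alone rose from 7.63 ± 0.365% to 17.1 ± 1.82% of E2F mRNA while its own level did not pass the test. These are mRNA shares, and the files hold no protein amounts.

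Among the G1 regulators, cyclins D1, E1, E2 and A2 fell and several kinase inhibitors rose. Of 17 tested, 8 were called lower and 4 higher, where 10.3% of all tested genes were called lower and 14.9% higher. CCNE1, CCNE2 and CDC25A are also on the list of G1/S targets of E2F below, so the 2 lists are not separate. The D cyclins start RB phosphorylation. CCND1 measured 46.8, 48.2 and 40.9 CPM in GM and 3.04, 5.49 and 9.48 CPM in DM, a log2 fold change of -2.91 (SE 0.28, adjusted p = 6.54e-06). The DM samples were widely spread but all far below GM. The other D cyclins, named after their values were seen, were lower in each DM sample but not called, with log2 fold changes of -0.89 (CCND2, 46.6 ± 3.73 CPM in DM) and -0.62 (CCND3, 64.5 ± 5.06 CPM in DM). CCNA2, the S-phase cyclin, fell by 2.30 on the log2 scale, CCNE1 by 1.62 and CCNE2 by 1.38, while CDK6, a partner of cyclin D, was short of a call at -0.80 (SE 0.081). CDK4 was listed with 0 counts in all 6 samples, so its level cannot be given, and SKP2 was not found by symbol.

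The inhibitors did not move as one. CDKN1A (p21) measured 57.2, 44.1 and 59.8 CPM in GM and 241, 264 and 292 CPM in DM, a 4.95-fold rise (adjusted p = 5.78e-08). CDKN1C (p57) rose 4.81-fold (adjusted p = 1.51e-07), while CDKN1B (p27) had a log2 fold change of 0.65 (SE 0.083), higher in each DM sample but short of a call. CDKN2C (p18), an inhibitor of CDK4 and CDK6 that is itself a known E2F target, fell by 1.47 on the log2 scale (SE 0.14). The other called inhibitors, CDKN2A and CDKN2B, were named after their values were seen, with log2 fold changes of 1.32 and 1.71.

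The DREAM complex joins RBL2 or RBL1, E2F4 or E2F5, and a DP subunit to the MuvB core (LIN9, LIN37, LIN52, LIN54 and RBBP4), and in dividing cells MuvB instead joins MYBL2 and then FOXM1 to activate G2/M genes. MYBL2 measured 449, 487 and 464 CPM in GM and 73.7, 78.0 and 81.3 CPM in DM, a 6.01-fold fall (adjusted p = 1.13e-09). MYBL1 fell by 1.94 and FOXM1 by 1.74 on the log2 scale. Of the 9 tested genes of this list 4 were called lower and none higher, where 10.3% of all tested genes were called lower and 14.9% higher. The fourth was LIN9 (-1.38), and the rest of the core had log2 fold changes of 0.48 (LIN37), -0.11 (LIN52), -0.43 (LIN54) and -0.50 (RBBP4), none called; these core genes were named after their values were seen.

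Of 14 tested chromatin partners of RB, 3 were called lower and 1 higher, with a median log2 fold change of -0.38. This share is near the 25.2% called among all tested genes and is no result about the list. SUV39H1, a histone H3 lysine methyltransferase, fell 3.36-fold (adjusted p = 2.72e-08), and DNMT1, the maintenance DNA methyltransferase, fell 3.03-fold (adjusted p = 8.50e-09). SMARCA2, an ATPase of the SWI/SNF remodelling complex, rose 3.11-fold (adjusted p = 4.66e-08), from 45.7 to 50.6 CPM in GM to 135 to 162 CPM in DM.

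Genes known as G1/S targets of E2F fell together. Of 43 tested, 32 were called lower and none higher, where 10.3% of all tested genes were called lower and 14.9% higher. The adjusted p was under 0.05 for all 43, against 62.9% of all tested genes, and the median log2 fold change was -1.62. The 3 genes shared with the G1 regulators, all called lower, are counted in both lists. RRM2, a subunit of ribonucleotide reductase, fell from 196 to 202 CPM in GM to 21.5 to 26.7 CPM in DM (8.33-fold, adjusted p = 1.69e-09). UHRF1, which recruits DNMT1 to newly copied DNA, fell 6.67-fold, and ORC1, a subunit of the origin recognition complex, fell 6.53-fold. The summed level of the list was 4349 to 4470 CPM in GM and 1269 to 1411 CPM in DM. MCM4, also on this list, was not found by symbol.

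All 25 tested genes of the G2/M list were called lower, against 10.3% of all tested genes, with a median of -2.02. CDC20, an activator of the anaphase-promoting complex, fell 6.52-fold, BIRC5 (survivin) 6.31-fold and CCNB1, the mitotic cyclin, 5.21-fold. CENPA was listed with 0 counts in all samples. The G1/S and G2/M lists mark cycling cells, and in bulk RNA fewer cycling cells and less RNA per cell cannot be told apart, which holds for each member that fell.

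Of 8 tested apoptosis genes linked to E2F1, 1 was called lower and 1 higher, with a median of 0.16, a share near the 25.2% called among all tested genes. BBC3 and PMAIP1, also on this list, were not found by symbol. TP73, a p53 relative, had 18, 13 and 24 counts in GM and 2, 3 and 0 in DM. CASP8, the initiator caspase of death receptors, measured 3.06 to 3.44 CPM in GM and 11.0 to 15.2 CPM in DM, a 4.08-fold rise (adjusted p = 9.47e-07).

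**Figure D5:**
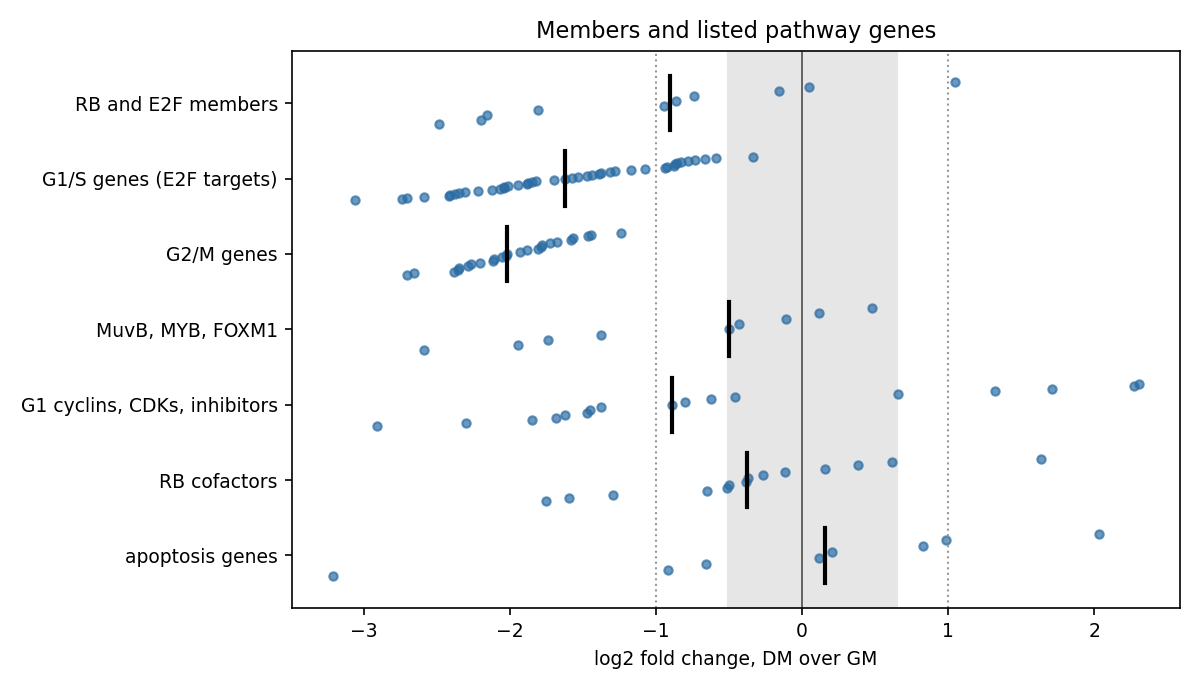
Log2 fold change (DM over GM) of the members and of each tested gene of 6 pathway lists, 1 point per gene, with the list median as a black bar, the middle 50% of all tested genes in grey and dotted lines at the fold threshold. All points of the G1/S and G2/M lists lie below 0, while the members and each of the other lists lie on both sides.

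The muscle identity of the cells was checked with 13 myogenic markers, of which 12 were listed and tested. DES was at 1782 to 2409 CPM in all samples. Of the 12, 6 were called higher and 2 lower, where 14.9% of all tested genes were called higher and 10.3% lower. MYOG, which marks committed myocytes, measured 52.4, 40.0 and 66.7 CPM in GM and 161, 185 and 155 CPM in DM (log2 1.65, adjusted p = 4.45e-06). CKM (6.32) and MYLPF (4.16), genes of mature muscle, had the largest log2 rises. Of the 2 called lower, PAX3 had 4, 6 and 2 counts in GM and none in DM. MYF5, named after its values were seen, fell from 137 to 150 CPM in GM to 19.9 to 25.8 CPM in DM (log2 -2.70, edgeR adjusted p = 1.04e-08). Of the 12, 7 were higher and 4 lower in every DM sample, where 34.4% of all tested genes were in each direction. The share of lower markers is near that of all tested genes. PAX7 (-0.93) and CDH15 (-0.53) were among the lower.

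Markers of other cell types moved as well. Fibroblast markers summed to 24840 to 25087 CPM in GM and 76956 to 96702 CPM in DM. Most of this was collagen mRNA, with means of 15306 and 44272 CPM for COL1A1 and 8309 and 39201 CPM for COL3A1. The sum is therefore no measure of fibroblast number. Of 6 tested, 5 were called higher, led by DCN, COL3A1 and THY1, where 14.9% of all tested genes were. PDGFRA, named after its values were seen, rose 1.49-fold and was not called. The sum of the list was lowest, among the DM samples, in DM3, and TCF21 had 0, 1 and 7 counts in GM and none in DM. The adipocyte list summed to 4.52 to 4.98 CPM in GM and 1.12 to 1.67 in DM, the endothelial list to 2.88 to 3.29 and 4.51 to 5.64, the macrophage list to 6.15 to 7.97 and 7.16 to 13.5, and the mural list to 156 to 168 and 143 to 249. Within these sums single genes moved in opposite directions. PPARG had 160, 191 and 172 counts in GM and 3, 14 and 18 in DM, while FABP4 had 0, 1 and 1 in GM and 15, 16 and 13 in DM. CD14 rose 6.71-fold and TEK 2.85-fold, CD68 fell 2.05-fold, and CDH5, also called lower, had 6 to 32 counts in GM and 1 to 8 in DM, with overlap. PTPRC had at most 2 counts in a sample, and CEBPA (adipocyte) and EGFL7 (endothelial) were not found by symbol. The part of the fibroblast markers in the change of the members was not tested.

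The genes most like each member over the 6 samples were found among 8981 genes averaging 10 CPM or more, by the root mean square (RMS) difference of log2 CPM centred on each gene's own mean. For E2F1 these were TONSL (0.047), RECQL4 (0.069) and CDCA7 (0.083), of which TONSL and RECQL4 act in replication and DNA repair. For E2F8 they were MAD2L1, a spindle checkpoint gene, MIS18A and APITD1 (0.091 to 0.096), and for E2F7 THBS1, HAS2 and CENPT (0.096 to 0.13). E2F2 was nearest to a gene known only by its identifier, then to FOXM1 and LSM7 (0.10 to 0.14).

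Of the other members, TFDP1 was nearest to MMS19, RBMXL1 and SCAF4 (0.023 to 0.026), RBL1 to USP10 and to a pair of genes with identifiers only (0.020 to 0.030), and E2F3 to TANGO6, AGPAT5 and UBE2J2 (0.042 to 0.047). RBL2 was nearest to LRRC8D, RAB9A and GINM1 (0.044 to 0.047), E2F5 to NDUFB5, TMEM70 and RWDD1 (0.028 to 0.035), and RB1 to ORMDL1, MTA3 and MAPK8 (0.049 to 0.067). Within the family TFDP1 was nearest to E2F4 (0.088), RBL1 and E2F3 to each other (0.094), RB1 and E2F5 to E2F6 (0.12 and 0.13), and E2F7 and E2F8 to each other (0.22), while the nearest relative of RBL2 was E2F5 at 0.51. These are descriptions over 6 samples in 2 groups.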

How the data were processed

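For 3 GM and 3 DM samples the authors deposited raw, unnormalized counts per gene and per mRNA. The deposited RPKM values, derived by the authors from these counts, served here only for 1 filter. The authors' lists of differentially expressed features hold their own log2 fold changes, p-values and q-values and were not used. The paper names HISAT2 and the buffalo genome, the tables list cattle Ensembl identifiers, and the submitters' processing notes list Bowtie 0.12.2, mm8 and mm9. The counts of buffalo reads are thus listed on cattle genes. What this does to levels between genes, or to genes with 0 counts, was not tested. No sample column was left unmapped (0).

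Genes with at least 10 counts in total entered the test (edgeR 4.0.16 under R 4.3.3, glmQLFit and glmQLFTest, TMM). TMM factors were 1.03 to 1.04 in GM and 0.951 to 0.983 in DM. Standard errors came from the F statistic. Ratios and levels used scipy 1.17.1, numpy 2.4.6 and pandas 2.3.3 under Python 3.11.15, and figures matplotlib 3.10.9. Replicates differed by more than sampling noise, and none was merged. In a simulation with 200 of 15576 genes changed 4-fold, as many up as down, 172 were recovered and 4 unchanged genes were called. In the data 25.2% of tested genes were called, with more higher than lower. The simulated numbers therefore check the code and do not give the error rate of this comparison.

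Members, gene lists and named genes were chosen with earlier results of these data known. Beside all members and relatives, the text names up to 3 called genes with the largest change of each list, a set of G1 regulators, MYBL2, FOXM1, MYOG and the 3 nearest genes of each member. Lists were described by counts of calls, medians and, for markers and G1/S genes, summed CPM. Log2 CPM used a prior count of 2 for nearest genes. Alternatives were DESeq2 1.42.0, other scalings, filters and fold rules, a replicate block and each sample left out.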

Additional observations from a re-analysis of the deposited data

How the results depend on the processing

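The number of called genes was 3932 and became 2195 with the RPKM rule (at least 1 in more than 50% of samples), 9805 without a minimum fold and 2294 when tested against a fold change of 2. Called members numbered 8 without a minimum fold, as did member transcripts. With each sample left out, 3648 to 3993 genes, 4 to 5 members and 4 to 5 member transcripts were called. The 6 pathway lists, with shared genes counted once, had 76 calls, 70 lower and 6 higher. They had 76 to 78 calls with each sample left out. The G1/S list held 32 of the 76 and the G2/M list 25, where 25.2% of all tested genes were called. RBL2 had a log2 fold change of 0.95 with library size alone and 0.99 without GM replicate 2, and E2F4 -0.98 without GM replicate 2, each losing the call, and RBL2 also lost it when tested against a fold change of 2 (4 members and 4 member transcripts called, 0 higher), while TFDP1 gained it with library size alone (-1.04). E2F5 (0.048, and -0.029 to 0.15 with each sample left out) turned to -0.044 with library size alone (adjusted p = 0.793) and to -0.029 without DM replicate 2 (adjusted p = 0.867). The cause was not tested. Library size alone moved the median of all tested genes by -0.09. E2F1, E2F7 and E2F8 kept their direction and call under all 13 alternatives and E2F2 under 12, since the RPKM rule left it untested.

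Deviations of samples with the same replicate number did not correlate (-0.0075, -0.0219 and -0.0105). This gave no sign of pairing but cannot exclude it, since noise within samples could hide it and the labels name no cultures or animals. With a replicate block 3830 genes and 5 members were called. Of 457 values of 36 other named genes under the alternatives, 451 kept their call and direction, 6 lost the call and 0 turned. Counts of 10 to 15 in DM limit E2F2, and per-sample counts carry counting error beside the spread between samples.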
